A study of Emberiza melanocephala with 4 samples.

Results

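The RNA-seq library labelled late stimulated was set against the library labelled early stimulated, in black-headed buntings (Emberiza melanocephala), a migratory songbird that breeds seasonally. Both are labelled as testis of birds caught from the wild. They are 2 of 4 libraries, 1 per testicular state, and the others carry the labels sensitive and refractory. Age, light schedule and the number of birds behind a library are not given in the sources used here, and no treatment is named beyond the state. As each state has a single library, nothing measures the spread between replicates. Every difference below describes these 2 libraries and carries no p-value. The comparison asks which genes parted between an earlier and a later labelled stage of stimulation.

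A gene's level is the coverage of its exons by all transcripts listed in a library, per exon base and per aligned base, in FPKM (fragments per kilobase of exon, scaled to the library's size). Transcripts were named after the genes of a different songbird, the collared flycatcher. Of 2239 genes that carried a reference name or ID in any library, 976 reached 15 FPKM in at least 1 of the 2 libraries, and 790 of these had a gene symbol. The member closest above this limit reached 15.03 FPKM in the library where it was higher, and the gene closest below it 14.98 FPKM. Differences are given as late minus early on the log2(FPKM + 1) scale, which understates the change of low genes. A call, higher or lower, needed a difference of 1 or more, that is 2-fold on values plus 1. In total 965 genes were covered in both libraries, 6 were listed at 0 in late stimulated and 5 were listed at 0 in early stimulated.

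In birds that breed by day length, long days act through the brain and pituitary to start growth of the testis, where Sertoli cells nurse the germ cells and Leydig cells make androgen. Photoreceptors of the eye turn light into a nerve signal through an opsin, the G protein transducin, a phosphodiesterase that breaks down cyclic GMP, and a guanylate cyclase that makes it again under the control of calcium-sensing proteins. Ribosomal proteins are made by every cell, and their messages are short.

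The defining markers of testis were almost without named genes here. Of 29 Sertoli-cell symbols searched, 2 were named, and their summed level was 4.62 FPKM in late stimulated and 6.50 FPKM in early stimulated, all of it from INHBA, an inhibin and activin subunit. INHA was at 0 in both. Of 33 symbols for Leydig cells and steroid synthesis, MSMO1, an enzyme of sterol synthesis in many tissues, was at 85.3 FPKM in late stimulated and 52.3 FPKM in early stimulated, and TSPO stood at 1.90 FPKM in late stimulated and was listed at 0 in early stimulated. Of 57 spermatid and sperm symbols 1 was named, MEIG1, at 4.69 FPKM in late stimulated and 2.63 FPKM in early stimulated. Of 32 meiotic symbols 1 was named, HSPA2, a heat shock protein abundant in meiotic cells of mammals, and it was lower at 12.6 FPKM in late stimulated, against 34.4 FPKM in early stimulated. Of 24 spermatogonial symbols 3 were named, and UCHL1, a ubiquitin hydrolase of both spermatogonia and neurons, made up nearly all of their summed 366 FPKM in late stimulated and 208 FPKM in early stimulated. By contrast, of 74 symbols of rod and cone photoreceptors 19 were named and 18 were members. The summed level over the 19 named was 2614 FPKM in late stimulated and 3298 FPKM in early stimulated. GNB1, which many other cells express, gave 958 FPKM of that sum in late stimulated and 1049 FPKM in early stimulated. Of 30 symbols of trunk and gonadal mesoderm regulators 9 were named, and 6 of these were at 0 in both libraries. Their summed level was 123 FPKM in late stimulated and 136 FPKM in early stimulated. Most of it came from MEIS1 and NR2F2, which are also on the list of neural developmental transcription factors. No symbol of connective tissue, endothelium, red or white blood cells, oligodendrocytes, the pineal gland or hypothalamic peptides was named. Genes with no name here may still have been expressed, since transcripts matched to a reference gene held 6.83% of TPM in late stimulated and 7.52% in early stimulated. On the named genes alone, the markers of Sertoli, Leydig and germ cells therefore go against the tissue label. Each library is called by its labelled state alone.

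The library labelled late stimulated rested on 428.4 Mb of aligned bases and 20488 transcripts, and early stimulated on 200.8 Mb and 15542 transcripts. Unmatched transcripts entered the lists at a coverage of 2.5 or more, or 5.84 FPKM in late stimulated and 12.5 FPKM in early stimulated. A level under these listing floors can therefore miss reads. Of the 965 genes, 51 had less than 50% of their exon bases covered in late stimulated and 71 in early stimulated, while 770 were covered in full in late stimulated and 659 in early stimulated. The last exon of genes with at least 3 exons held a median of 94.1% of the coverage of first and last exon together in late stimulated and 93.0% in early stimulated, and the first exon was at 0 in 119 of these genes in late stimulated and 165 in early stimulated.

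Most genes kept their level between the libraries. Among these 965 genes, 867 (89.8%) differed by less than 1, 30 (3.11%) were higher in late stimulated and 68 (7.05%) were lower. Calls in either direction came to 10.2%. Adjusted for exon length, as described below, the split was 38 higher and 48 lower. That adjustment centres the differences too, and centring alone gave 32 higher and 59 lower. The median difference was -0.06, the middle 50% of genes lay between -0.41 and 0.23, and 90% lay between -1.17 and 0.78. Levels in the libraries had a Spearman correlation of 0.87 across genes, which share library and depth and are not independent replicates.

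**Figure D1:**
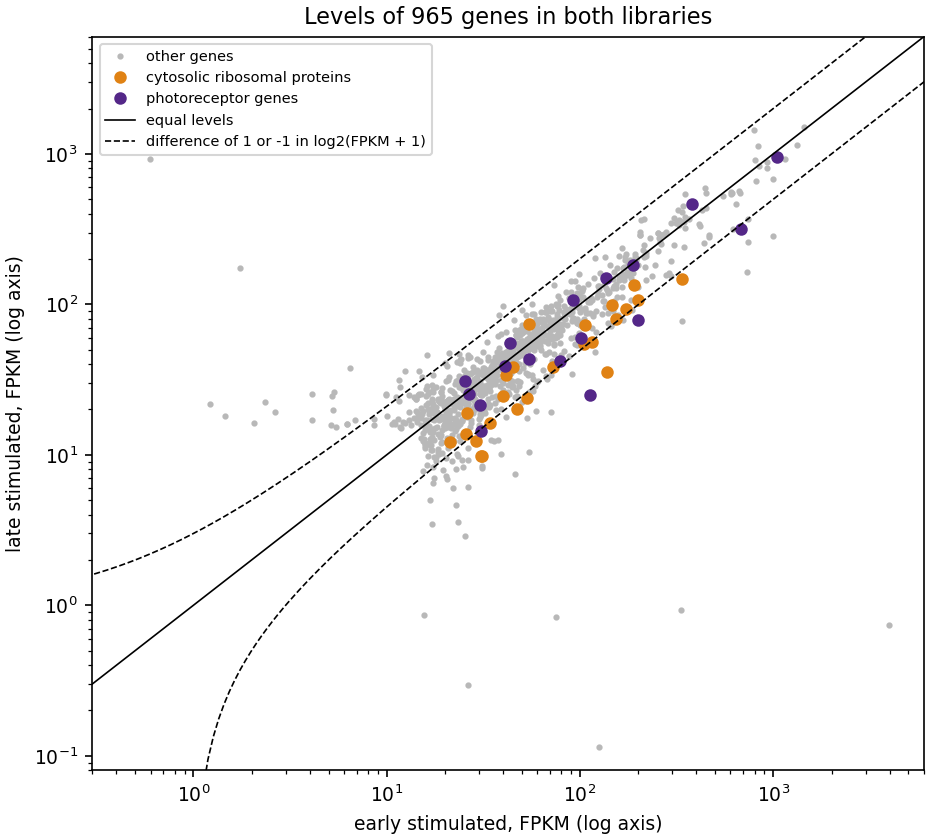
Level of each of the 965 genes covered in both libraries, in FPKM on log axes, late stimulated against early stimulated, with ribosomal-protein and photoreceptor genes marked. Most points lie close to the line of equal levels, and ribosomal proteins lie on the side of lower levels in late stimulated.

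Calls were commonest in the group of lowest mean level, a pattern that the limit on level partly builds in. A gene over 15 FPKM in a single library and near 0 in the other lands there because its levels differ. The groups therefore cannot show whether weakly covered genes differ more often. In the lowest of 5 groups of 193 genes by mean level, with median levels of 15.8 FPKM in late stimulated and 17.2 FPKM in early stimulated, 21 genes were higher and 32 lower. In the highest group, with medians of 165 FPKM in late stimulated and 185 FPKM in early stimulated, 0 were higher and 9 lower, and its middle 50% of differences lay between -0.33 and 0.16. The higher genes were mostly low in early stimulated. Of the 30, 24 had a level there under the listing floor of 12.5 FPKM. The limit on level favours such genes, and the share of all genes under that floor is not given here. Under 50% of the exon bases were covered there in 10 of the 30, against 71 of all 965 genes. Of the 68 lower genes, 11 were under the floor of 5.84 FPKM in late stimulated and 11 had under 50% of their exon bases covered in late stimulated. The part of listing, coverage and the limit on level in these calls was not tested.

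The most abundant members with a symbol differed by less than 1. Some short genes without a symbol were as abundant in a single library and differed widely, as given below. CALM3, a calmodulin gene, was at 1438 FPKM in late stimulated and 790 FPKM in early stimulated, a difference of 0.86. EIF4A2, a helicase of translation initiation, was at 1151 FPKM in late stimulated and 1324 FPKM in early stimulated, and GNB1, a G protein beta subunit of rods and of many other cells, at 958 FPKM in late stimulated and 1049 FPKM in early stimulated. The level of GNB1 came from its last exon of 1200 bases, at 1868 FPKM in late stimulated and 1855 FPKM in early stimulated. Of its 12 exons 10 were lower, and exons 3 to 9 differed by -2.63 to -3.21. OAZ1, the antizyme that limits polyamine synthesis, PCP4, a calmodulin-binding peptide of neurons, and CKB, the brain creatine kinase, also differed by less than 1, at 923, 831 and 879 FPKM in late stimulated and 1145, 839 and 931 FPKM in early stimulated. HSP90AA1, the inducible HSP90 chaperone, was at 681 FPKM in late stimulated and 999 FPKM in early stimulated. None of these abundant genes passed the threshold.

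Short genes leaned lower in the library labelled late stimulated. The Spearman correlation between difference and exon length was 0.27 across the 965 genes, a description over genes that share both libraries. In 5 equal groups of 193 genes, the shortest, with 51 to 747 exon bases, had a median difference of -0.28, with 11 genes higher and 35 (18.1%) lower. Genes of 750 to 1499 bases had a median of -0.12, with 5 higher and 17 lower, and genes of 1500 to 2482 bases one of -0.09, with 4 higher and 10 lower. Genes of 2487 to 3751 bases were balanced, with a median near 0, 2 higher and 2 lower. The longest, of 3775 to 8756 bases, leaned higher, with a median of 0.09, 8 higher and 4 lower. The lower genes had a median exon length of 677.5 bases and the higher genes one of 1155 bases, against 1930 bases over all 965. The correlation was as large without the 56 genes under 200 bases, at 0.27 to 2 decimals. Subtracting the median difference of genes of like length, in 20 groups, brought the correlation to 0.019 and kept 77 of the 98 calls.

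**Figure D2:**
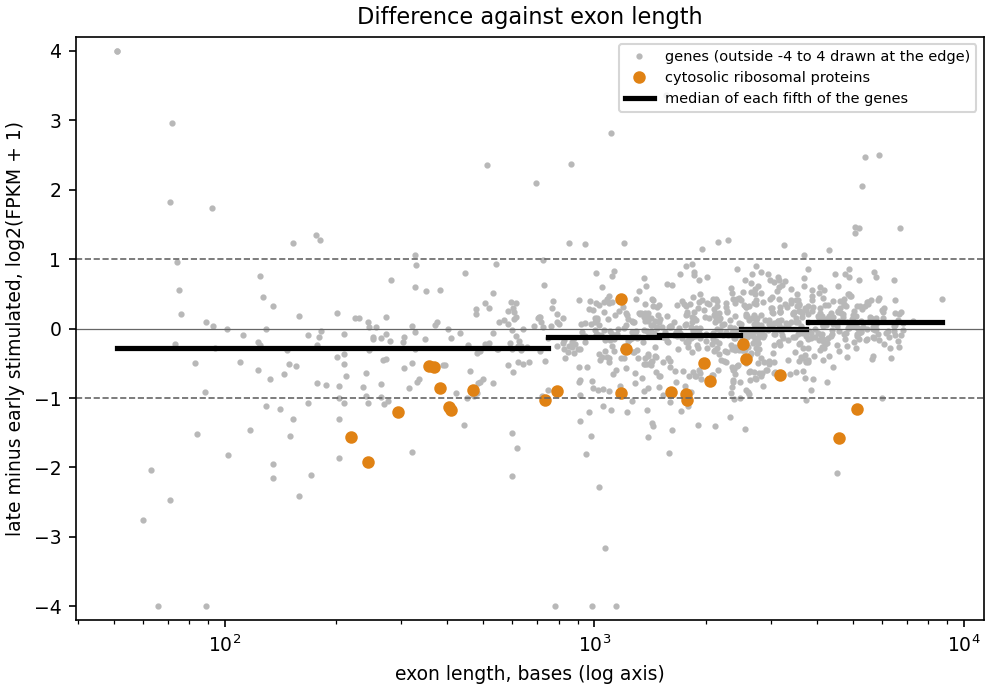
Difference in log2(FPKM + 1), late minus early, of each of the 965 genes against its exon length in bases on a log axis, with the medians of 5 equal length groups as bars and ribosomal proteins in orange. Differences beyond 4 in either direction are drawn at the edge. The group medians climb from -0.28 in the shortest genes to 0.09 in the longest, and ribosomal proteins lie under them at most lengths.

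Cytosolic ribosomal-protein genes had the lowest median of the 27 gene lists with at least 3 members covered in both. Of 30 that carried a name, 24 were members and covered in both libraries, 9 (37.5%) were lower against 7.05% of all genes, 0 were higher, and 23 of 24 differences were below 0. Their median difference was -0.90, against -0.06 over all genes. The list goes by symbol, so the paralogs RPL22L1 and RPS27L count, and near-identical gene copies could share coverage. Their summed level over the 30 was 1249 FPKM in late stimulated and 2231 FPKM in early stimulated, while refractory stood at 3034 FPKM and sensitive at 9258 FPKM. A bulk library cannot tell fewer cells of a type from less RNA per cell, here or for the groups that follow.

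Of the small subunit, RPS21 was at 35.7 FPKM in late stimulated and 138 FPKM in early stimulated, a difference of -1.92. It has 243 exon bases in 4 exons, and 3 of the 4 were lower. RPS15A was at 56.0 FPKM in late stimulated and 115 FPKM in early stimulated. RPS3A was called lower as well, at 12.4 FPKM in late stimulated and 28.9 FPKM in early stimulated, although only 13.9% of its exon bases were covered in late stimulated, against all of them in early stimulated. RPS20 stayed within the threshold, at 73.1 FPKM in late stimulated and 106 FPKM in early stimulated.

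Of the large subunit, RPL37 was the most abundant lower gene, at 147 FPKM in late stimulated and 337 FPKM in early stimulated. It lies on the plus strand of FicAlb_1.4 scaffold JH603245.1 from 420741 to 422579, and all 3 of its exons were lower, by 0.81 to 1.69 on the log2 scale. RPL14 was at 9.87 FPKM in late stimulated and 31.3 FPKM in early stimulated, RPL38 at 9.74 FPKM in late stimulated and 30.7 FPKM in early stimulated, and RPL32 at 20.3 FPKM in late stimulated and 47.0 FPKM in early stimulated. Each had all of its exons lower. RPL22 was at 16.3 FPKM in late stimulated and 34.3 FPKM in early stimulated. Other members lay just inside the threshold: RPL5 at 106 FPKM in late stimulated and 200 FPKM in early stimulated, RPL34 at 93.2 FPKM in late stimulated and 173 FPKM in early stimulated, and the stalk protein RPLP0 at 54.5 FPKM in late stimulated and 105 FPKM in early stimulated. RPL30 alone was above 0, at 73.5 FPKM in late stimulated and 54.6 FPKM in early stimulated.

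Ribosomal proteins lay lower than other genes of like listed exon length. In the shortest length group the 10 ribosomal proteins had a median of -1.08, against -0.24 for the other 183 genes of that group, and in the other 4 groups they stood at -0.59, -0.91, -0.44 and -1.36 over 4, 5, 3 and 2 genes, against -0.11, -0.07, 0.006 and 0.10 for the rest. The 2 in the longest group were RPL14 and RPS3A, whose last exons held 3667 of 4588 and 4163 of 5153 exon bases. These exons stood at 4.10 and 0 FPKM in late stimulated and 9.79 and 2.43 FPKM in early stimulated. Exon length counts all listed exon bases, so such genes can be matched to genes with longer messages. Adjusted for exon length, their median over the list was -0.76. Then 5 of the 9 lower members no longer passed the threshold, among them RPL37 at -0.77, RPL32 at -0.83, RPL22 at -0.95 and RPS15A at -0.98. Centring all differences on their median took RPL22 and RPS15A inside the threshold.

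**Figure D3:**
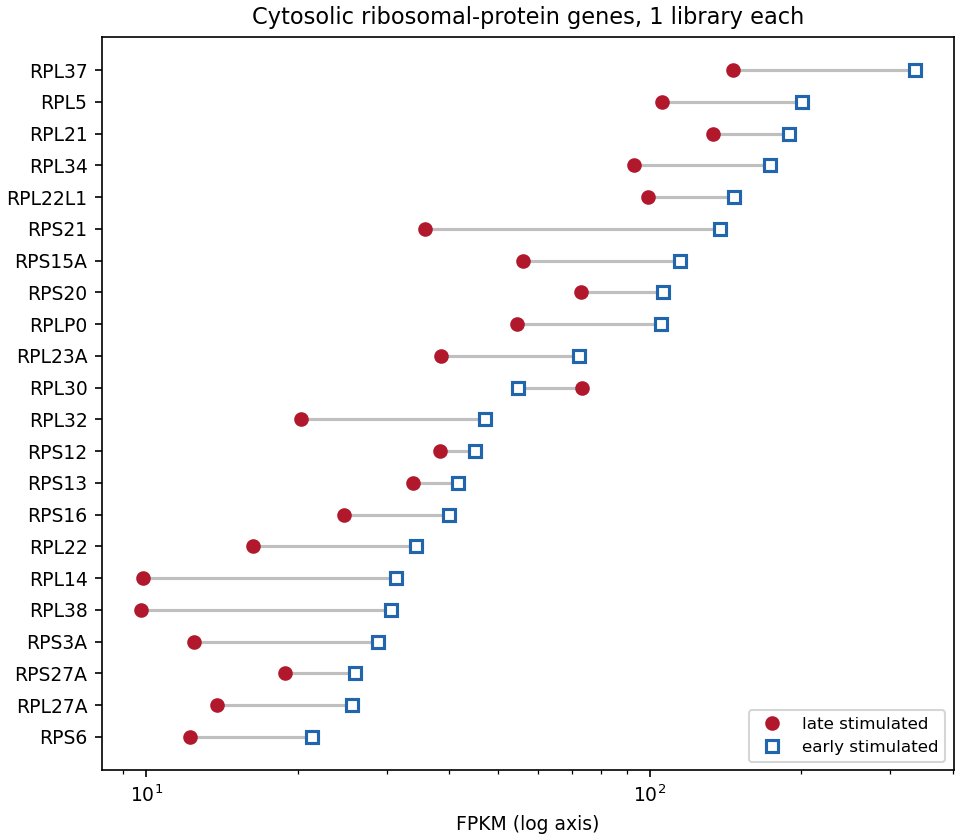
Level in FPKM on a log axis of 22 of the 24 ribosomal-protein genes at 15 FPKM or more, 1 gene per row, with a point for late stimulated and a point for early stimulated joined by a line. The late stimulated point lies on the lower side in each gene drawn except RPL30.

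Photoreceptor genes did not move as 1 block. Of 17 rod and cone members covered in both libraries, 4 (23.5%) were lower against 7.05% of all genes. Of the others 0 were higher and 13 stayed within the threshold. The median difference was -0.13 against -0.06 over all genes. Adjusted for exon length, the median was -0.16. The median depends on which genes count as photoreceptor markers, and those of this list were textbook markers written with earlier values of these libraries known. Short members leaned lower, with a median of -0.68 for the 4 in the shortest length group against -0.26 for its other genes, and 0.33 for the single member in the longest.

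The calcium sensors of guanylate cyclase parted from each other. GUCA1A, an activator of the cyclase at low calcium, was at 24.9 FPKM in late stimulated and 112 FPKM in early stimulated, a difference of -2.13. All 4 of its exons (600 bases on the plus strand of scaffold JH603191.1, from 485459 to 489010) were lower, by 2.04 to 2.18, and both libraries covered every exon base. GUCA1C, of the same family and of almost the same length at 570 exon bases, was at 149 FPKM in late stimulated and 136 FPKM in early stimulated. RD3L, a relative of the cyclase regulator RD3, was at 466 FPKM in late stimulated and 381 FPKM in early stimulated. In the library labelled refractory GUCA1A stood at 76.1 FPKM and GUCA1C at 188 FPKM, and both were listed at 0 in sensitive.

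Among the G-protein genes, PDC, the phosducin that binds transducin beta-gamma subunits, was at 79.0 FPKM in late stimulated and 200.4 FPKM in early stimulated, a difference of -1.33. All 3 of its exons were lower, by 0.37 to 1.65. It lies on the minus strand of scaffold JH603197.1 from 7908299 to 7912924. GNAT2, the cone transducin alpha subunit, was at 59.8 FPKM in late stimulated and 101 FPKM in early stimulated, with 7 of 8 exons lower. GNB3, the cone transducin beta subunit, was at 42.1 FPKM in late stimulated and 78.5 FPKM in early stimulated. Both stayed inside the threshold, at -0.74 and -0.88. RGS9BP, the anchor of the protein that switches transducin off, was at 43.5 FPKM in late stimulated and 54.6 FPKM in early stimulated, and GRK7, the cone opsin kinase, at 39.2 FPKM in late stimulated and 40.8 FPKM in early stimulated.

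Of the inhibitory subunits of the phosphodiesterase, 1 was called. PDE6G, the rod subunit, was at 14.4 FPKM in late stimulated and 30.8 FPKM in early stimulated, a difference of -1.04, with all 3 exons lower. It spans only 276 exon bases, and adjusted for exon length its difference was -0.62, inside the threshold. PDE6H, the cone subunit, was at 184 FPKM in late stimulated and 189 FPKM in early stimulated over the whole gene. Its last exon of 2220 bases was level, at 222 FPKM in late stimulated and 219 FPKM in early stimulated, but the other 3 exons were lower. Its exons 2 and 3 differed by -1.42 and -1.39, at least as much as any exon of PDE6G, whose differences ran from -1.19 to -0.44.

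Several other photoreceptor genes differed by less than 1. RBP3, a retinoid carrier of the space around photoreceptors, was at 25.4 FPKM in late stimulated and 26.7 FPKM in early stimulated, and KCNV2, a potassium channel subunit of rods and cones, at 21.5 FPKM in late stimulated and 30.5 FPKM in early stimulated. CPLX4, a complexin of ribbon synapses, was at 107 FPKM in late stimulated and 91.6 FPKM in early stimulated. ELOVL4, which makes very long fatty acids, stood at 55.1 FPKM in late stimulated and 43.6 FPKM in early stimulated, and THRB, a thyroid hormone receptor that guides cone identity, at 30.8 FPKM in late stimulated and 25.5 FPKM in early stimulated. NXNL2, a thioredoxin-like survival factor of photoreceptors, was listed at 0 in late stimulated and was at 26.6 FPKM in early stimulated. RLBP1, the retinaldehyde carrier of Müller glia and pigment epithelium, was lower, at 8.32 FPKM in late stimulated and 24.7 FPKM in early stimulated, where only 23.8% of its exon bases were covered.

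**Figure D4:**
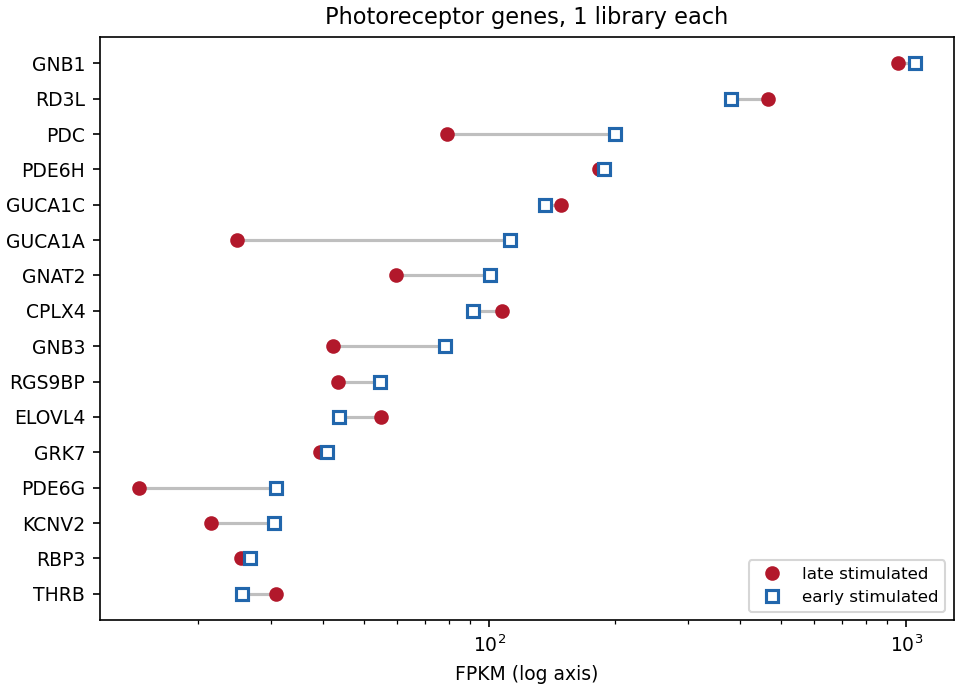
Level in FPKM on a log axis of 16 of the 17 photoreceptor genes covered in both libraries, 1 gene per row, with a point for late stimulated and a point for early stimulated joined by a line. GUCA1A and PDC have the widest gaps, and PDE6H, GRK7 and RBP3 have points that nearly coincide.

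The few named genes on the lists of other retinal cells mostly stayed within the threshold. Of 31 amacrine-cell symbols searched 6 were named, of 23 bipolar-cell symbols 5 and of 27 ganglion-cell symbols 6. Some of them, such as GAD1 and STMN2, are also on the list of neurons and synapses and do not mark a single cell type. None of the 5 amacrine-cell genes was called. Over all genes 10.2% were called, so a list of 5 or 4 genes without a call says little. The GABA-making enzymes GAD1 and GAD2 were at 144 and 136 FPKM in late stimulated and 169 and 110 FPKM in early stimulated. Their differences were small, at -0.23 and 0.30. The exons of GAD1 were split, with 9 higher and 8 lower, and 58.8% of its exon bases were covered in early stimulated. CALB2, the calcium buffer calretinin, was at 241 FPKM in late stimulated and 344 FPKM in early stimulated, and GLRA2, a glycine receptor subunit, at 79.3 FPKM in late stimulated and 61.7 FPKM in early stimulated. None of the 4 bipolar-cell genes was called either, among them the G protein subunit GNG13 at 90.6 FPKM in late stimulated and 121 FPKM in early stimulated. Of 5 ganglion-cell genes 1 (20%) was lower, against 7.05% of all genes. It was GAP43, a protein of growing axons, at 9.06 FPKM in late stimulated and 21.6 FPKM in early stimulated. The nicotinic receptor subunit CHRNB3, at 106 FPKM in late stimulated and 151 FPKM in early stimulated, and the RNA-binding protein ELAVL4, at 161 FPKM in late stimulated and 127 FPKM in early stimulated, were not called. Of the 3 glial genes RLBP1 was the only one called (33.3% lower, against 7.05% of all genes). The glutamate transporter SLC1A3 was at 116 FPKM in late stimulated and 129 FPKM in early stimulated.

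Of 16 genes on the list of neurons and synapses GAP43 (6.25%) was lower, a share near the 7.05% of all genes, and 0 were higher. In this list 10 differences were above 0 and the median was 0.04. TAGLN3 was at 362 FPKM in late stimulated and 327 FPKM in early stimulated, the endophilin SH3GL2 at 261 FPKM in both, the granule protein SCG3 at 294 FPKM in late stimulated and 272 FPKM in early stimulated, and the microtubule regulator STMN2 at 93.2 FPKM in late stimulated and 100.5 FPKM in early stimulated. Some abundant genes of secretory and neuronal cells lay between these and the threshold. UCHL1 was at 365 FPKM in late stimulated and 206 FPKM in early stimulated, a difference of 0.82, and CPE, the carboxypeptidase that processes peptide hormones, was at 371 FPKM in late stimulated and 215 FPKM in early stimulated, a difference of 0.79.

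Of 6 neuronal calcium-binding proteins 2 were lower, against 7.05% of all genes, and 0 were higher, with a median of -0.45 against -0.06 over all genes. Besides GUCA1A, the called gene was NCS1, a calcium sensor of synapses, at 12.6 FPKM in late stimulated and 37.8 FPKM in early stimulated. Its exon bases were covered to 34.3% in late stimulated and in full in early stimulated. Of its 6 exons 5 were lower, and exons 1 to 3 were at 0 in late stimulated. The last exon of NCS1 was higher, at 24.2 FPKM in late stimulated and 7.98 FPKM in early stimulated. CALB1, the calbindin of horizontal cells and other neurons, was at 80.2 FPKM in late stimulated and 105 FPKM in early stimulated.

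Of 10 receptors for neurotransmitters 1 was higher, against 3.11% of all genes, and 0 were lower, against 7.05%. Of their differences 7 were above 0, and the median was 0.25. GABRA2, an alpha subunit of the GABA-A receptor, leaned lower at 30.3 FPKM in late stimulated and 48.8 FPKM in early stimulated. Of its 10 exons 9 were lower, and exons 5 to 8 differed by -1.90 to -3.21. Its last exon, of 628 bases, was nearly level at 74.4 FPKM in late stimulated and 68.7 FPKM in early stimulated. The absence of a call for GABRA2 thus rests in part on that exon. GABBR2, a subunit of the GABA-B receptor, leaned higher at 36.5 FPKM in late stimulated and 29.5 FPKM in early stimulated. The AMPA receptor subunit GRIA4 was at 54.1 FPKM in late stimulated and 52.5 FPKM in early stimulated.

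Genes of energy metabolism leaned lower in part. Of the 7 genes on the glycolysis list 1 was lower, against 7.05% of all genes, and 0 were higher. The list median was -0.62, or -0.51 adjusted for exon length. CKB, at -0.08, and MDH1, at 0.47, are on this list but are not enzymes of glycolysis themselves. The other members were all below 0, from -1.01 for GAPDH to -0.30 for GPI, with ENO2 at -0.89 in the middle. GAPDH was at 367 FPKM in late stimulated and 739 FPKM in early stimulated, a difference of -1.01, which came to lie inside the threshold when all differences were centred on their median, and only 19.5% of its exon bases were covered in either library. The enolases ENO1 and ENO2 had 12 of 12 exons lower each. ENO1 was at 154 FPKM in late stimulated and 295 FPKM in early stimulated, and ENO2, the neuronal form, at 75.4 FPKM in late stimulated and 140.0 FPKM in early stimulated, both just inside the threshold at -0.93 and -0.89. GPI, which converts glucose phosphate to fructose phosphate, was at 660 FPKM in late stimulated and 813 FPKM in early stimulated.

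The nuclear genes of mitochondrial respiration had 6 members covered in both libraries. Of these 2 were lower, against 7.05% of all genes, and 0 were higher. Their median was -0.88, or -0.65 adjusted for exon length. A further member, CMC1, leaned the other way without a call, at 46.1 FPKM in late stimulated and listed at 0 in early stimulated. NDUFA12, a complex I subunit, was at 34.3 FPKM in late stimulated and 91.4 FPKM in early stimulated, with all 3 exons lower. CMC4, a small protein of the mitochondrial intermembrane space with 204 exon bases, was at 9.29 FPKM in late stimulated and 24.4 FPKM in early stimulated, and adjusted for exon length its difference was -0.88, inside the threshold. NDUFS4, another complex I subunit, was not called, at 79.0 FPKM in late stimulated and 70.05 FPKM in early stimulated.

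Genes encoded in mitochondrial DNA scattered in both directions. The 6 protein genes that passed the limit of 15 FPKM split into 2 higher, 3 lower and 1 within the threshold. Of all 9 genes of mitochondrial DNA at that limit, 2 were higher and 5 lower, against 3.11% and 7.05% of all genes. That limit favours genes whose levels lie far apart. ND2, ND3 and ND5 were covered in both libraries too but stayed under it. They were at 7.83, 0.84 and 0.53 FPKM in late stimulated and 10.3, 2.17 and 3.21 FPKM in early stimulated. COX3 was at 0.11 FPKM in late stimulated and 126 FPKM in early stimulated, and CYTB at 0.30 FPKM in late stimulated and 26.4 FPKM in early stimulated. COX1 went the other way, at 21.8 FPKM in late stimulated and 1.22 FPKM in early stimulated, as did ATP6, at 26.1 FPKM in late stimulated and 5.34 FPKM in early stimulated. ATP8, whose exon overlaps that of ATP6, was lower at 31.7 FPKM in late stimulated and 67.6 FPKM in early stimulated, and adjusted for exon length its difference was -0.58, inside the threshold. The late stimulated levels of COX3 and CYTB lay under the listing floor of 5.84 FPKM. The early stimulated levels of COX1 and ATP6 lay under the floor of 12.5 FPKM. Protein genes transcribed together from the same circle thus had listed differences from -6.83 to 3.36, and the extremes rest on levels that can miss reads.

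**Figure D5:**
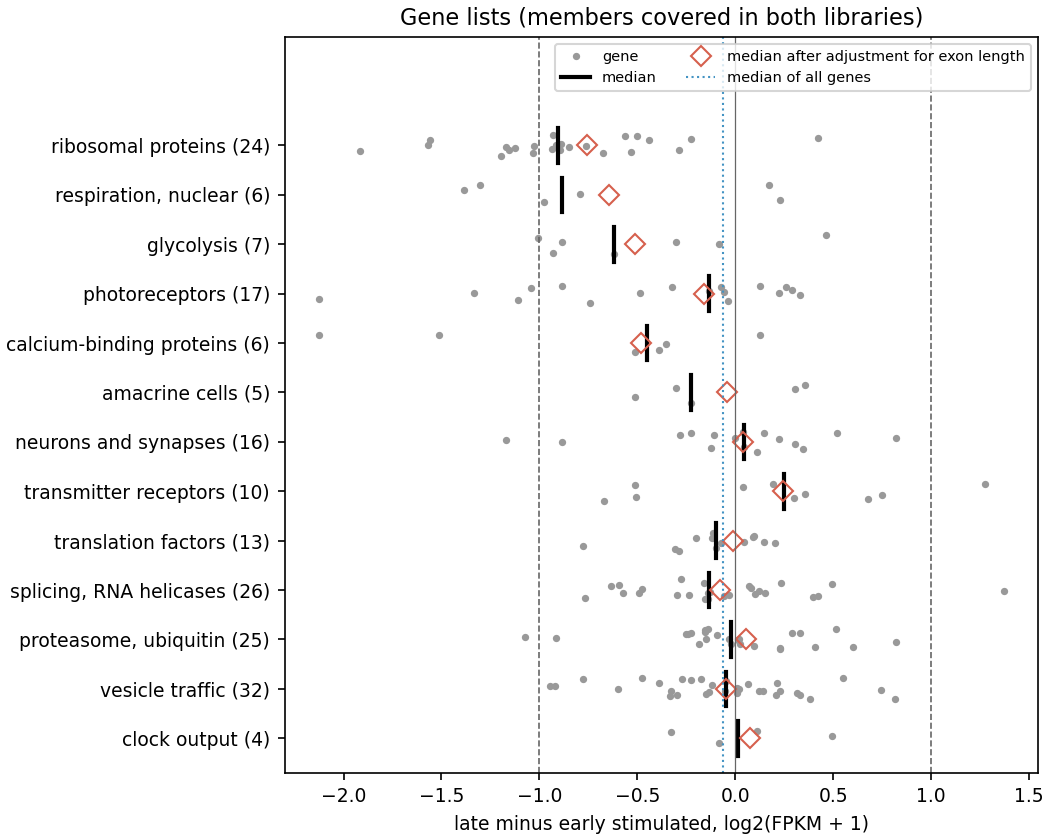
Difference in log2(FPKM + 1), late minus early, for the members of 13 gene lists, with a point per gene, a bar at each list's median, a diamond at the median adjusted for exon length and a dotted line at the median of all genes, -0.06. Ribosomal proteins lie lowest with a median of -0.90, neurons and synapses sit at 0.04 and neurotransmitter receptors at 0.25.

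Most other cell functions showed few calls. Of 32 genes of vesicle traffic 0 were called, and their differences ran from -0.95 for RAB7A, a GTPase of late endosomes, to 0.82 for TMED2, a cargo receptor of the early secretory pathway. Of 13 translation factors 0 were called, with EIF1 lowest at -0.78. Their median was -0.10, beside -0.06 over all genes. These counts and those that follow stand beside 3.11% higher and 7.05% lower over all genes. Of 25 genes of the proteasome and ubiquitin pathway 1 was lower: RBX1, the RING subunit of cullin ubiquitin ligases, at 26.5 FPKM in late stimulated and 56.8 FPKM in early stimulated, and its difference was -0.64 adjusted for exon length, inside the threshold. Of 26 splicing genes 1 was higher, PTBP2, the neuronal polypyrimidine-tract-binding protein, at 31.4 FPKM in late stimulated and 11.5 FPKM in early stimulated, where 31.6% of its exon bases were covered. The call came from the last exon of PTBP2, of 3660 bases, at 33.8 FPKM in late stimulated and 3.46 FPKM in early stimulated. Of its 11 exons 6 were higher and 5 lower, and exons 2 to 5 differed by -0.61 to -1.16. Of 12 chaperones HSPA2 alone was called. Of 11 chromatin genes the acidic protein PTMA, at 9.86 FPKM in late stimulated and 23.5 FPKM in early stimulated, and HMGB2, at 22.5 FPKM in late stimulated and 49.99 FPKM in early stimulated, were lower. HMGB1, a relative of HMGB2, was at 228 FPKM in late stimulated and 211 FPKM in early stimulated. Of 13 pumps and carriers 0 were called. The 4 clock output genes were not called either, with NFIL3 at 302 FPKM in late stimulated and 279 FPKM in early stimulated and NR1D2 at 89.4 FPKM in late stimulated and 63.1 FPKM in early stimulated.

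Among all symbols, MXD4, a MAX-binding repressor, was higher with full coverage. It was at 45.8 FPKM in late stimulated and 16.1 FPKM in early stimulated, all 6 of its exons were higher, and both libraries covered all of its 5208 exon bases. FLRT3, a membrane protein of axon guidance with a single listed exon, was at 47.7 FPKM in late stimulated and 21.1 FPKM in early stimulated, and RAP2A, a small GTPase, at 84.9 FPKM in late stimulated and 38.1 FPKM in early stimulated, where 25.1% of its exon bases were covered. MXD4, FLRT3 and RAP2A were among the few higher genes with a symbol whose early stimulated level lay over the listing floor, and they were singled out after their values were seen.

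Other strongly higher symbols had early stimulated levels under the listing floor. Of those given here, all but MRPL13 had under 50% of their exon bases covered there. SIAH1, a ubiquitin ligase, was at 22.5 FPKM in late stimulated and 2.36 FPKM in early stimulated, where 2.97% of its exon bases were covered. KAT6B, a histone acetyltransferase, was at 16.2 FPKM in late stimulated and 2.05 FPKM in early stimulated, where 6.53% were covered. NUCKS1, a nuclear DNA-binding protein, stood at 37.7 FPKM in late stimulated and 6.48 FPKM in early stimulated, and SYNGR1, a synaptic vesicle protein, at 35.9 FPKM in late stimulated and 12.4 FPKM in early stimulated. In early stimulated 39.8% of the exon bases of NUCKS1 were covered and 4.74% of those of SYNGR1. MRPL13, a protein of the mitochondrial ribosome, was covered in full in both libraries, with all 6 exons higher, at 25.3 FPKM in late stimulated and 4.12 FPKM in early stimulated, a level under the floor.

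The genes furthest lower included small ones with a single or a pair of exons. ATOX1, a copper chaperone of 204 exon bases, was at 10.1 FPKM in late stimulated and 39.2 FPKM in early stimulated. The small nucleolar RNAs SNORD97 and SNORD2 were at 77.7 and 7.50 FPKM in late stimulated and 339 and 45.9 FPKM in early stimulated, while SNORA81 was higher, at 25.4 FPKM in late stimulated and 9.87 FPKM in early stimulated. POLR2L, a subunit shared by RNA polymerases, was at 10.4 FPKM in late stimulated and 54.4 FPKM in early stimulated, and MRPS25, of the mitochondrial ribosome, at 6.01 FPKM in late stimulated and 22.04 FPKM in early stimulated. MESDC1 was at 0.86 FPKM in late stimulated, under the floor, and 15.6 FPKM in early stimulated. ATP6V0D1, a subunit of the vacuolar proton pump with 3739 exon bases, was a long gene among the lower ones, at 26.2 FPKM in late stimulated and 54.4 FPKM in early stimulated, with all 8 exons lower. Its difference of -1.02 came to -0.96, inside the threshold, when all differences were centred on their median. CXCL14, a chemokine, was at 11.0 FPKM in late stimulated, where 23.4% of its exon bases were covered, and 26.4 FPKM in early stimulated.

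Genes without a symbol had the widest differences, and most of the extreme ones were very short. ENSFALG00000015546, with 51 exon bases, was at 921 FPKM in late stimulated and 0.60 FPKM in early stimulated, and ENSFALG00000015417, also with 51 exon bases, at 175 FPKM in late stimulated and 1.74 FPKM in early stimulated. ENSFALG00000015904, with 66 exon bases, went the other way, at 0.74 FPKM in late stimulated and 3987 FPKM in early stimulated. ENSFALG00000016231, with 983 exon bases that overlap another gene, was at 0.93 FPKM in late stimulated and 334 FPKM in early stimulated. Of the 56 genes under 200 exon bases, 8 were higher and 17 lower, against 3.11% higher and 7.05% lower over all genes. Calls in both directions were thus more frequent among these very short genes.

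Genes listed at 0 in one of the libraries were few. In late stimulated they were the synuclein SNCB, RPS19BP1, NXNL2, the tyrosine-breakdown enzyme GSTZ1, SNORD94 and a gene without a symbol, and in early stimulated SNCB was at 36.6 FPKM, RPS19BP1 at 30.5 FPKM, GSTZ1 at 18.5 FPKM and SNORD94 at 16.1 FPKM, all at least 2 times the late stimulated floor of 5.84 FPKM. Of those listed at 0 in early stimulated, CMC1, a mitochondrial assembly factor, was at 46.1 FPKM in late stimulated, over 2 times the early stimulated floor of 12.5 FPKM. UGDH, which makes UDP-glucuronate, was at 21.8 FPKM in late stimulated, the synaptic adhesion protein NLGN1 at 16.7 FPKM and SVIP at 16.3 FPKM, all under 2 times that floor, so a 2-fold difference is not measurable for them.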

How the data were processed

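The 4 deposited transcript lists were used, 1 per library, and 2 of them were compared. The authors' files hold FPKM, TPM and coverage of each transcript, and coverage of each exon, written by StringTie 1.3.3b with the Ensembl 89 annotation of Ficedula albicollis (FicAlb_1.4), per the file headers. Read trimming used Trimmomatic per the submitters' processing notes. For alignment, the tool was not given in the sources used here. Deposited TPM was used only for the share of matched transcripts. No read counts were given, so no counting intervals were made, and coverage divided by FPKM gave the aligned bases. Per the labels' protocols, total RNA was extracted with Tri reagent.

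The gene level was the exon coverage by all listed transcripts on the gene's strand or without a strand, over the exon bases that reference-matched transcripts of any of the 4 files gave it, divided by the library's coverage per FPKM. Overlapping genes (14 members) and paralogs can share coverage. Listed at 0 means that no listed transcript covered the exons. The pseudocount was 1, and the call a difference of at least 1.

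Members, gene lists (50) and rules were chosen with earlier results of these data known. Named genes were the 12 highest and 12 lowest differences, genes listed at 0, the 8 highest levels per library, and called and abundant list members. The remainder of the lower and higher genes named, members given for contrast and genes without a symbol were chosen after their values were seen. Single values of 7 genes are not reported here, while counts keep them. The code was tested on simulated data. Python 3.11.15, numpy 2.4.6, pandas 2.3.3 and matplotlib 3.10.9 were used. In all, 14 alternatives were planned and 3 were added after the data were seen.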

Additional observations from a re-analysis of the deposited data

How the results depend on the processing

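The counts of 30 higher and 68 lower genes moved most with the limit on level and the size of the call. At 1 FPKM or more, and with no filter on level, 58 were higher and 128 lower, of 1506 and of 1622 genes. At 30 FPKM or more 11 were higher and 44 lower of 680, and at a 4-fold threshold 11 were higher and 15 lower of 965. The other alternatives kept both counts within 1.5 times: a pseudocount of 0.1 gave 32 and 73, one of 5 gave 22 and 47, centring on the median gave 32 and 59, and taking only genes with at least 50% of their exon bases covered in both gave 20 and 56 of 860. Adjustment for exon length gave 38 higher and 48 lower. Values under the genes' own names gave 26 and 72 of only 566 genes, so that 12.7% were lower against 7.05%, and moved 12 of 27 list medians, and there 10 named genes passed a threshold that their exon coverage did not. Of the alternatives chosen after seeing the data, leaving out genes under 200 exon bases gave 22 and 51 of 909, an equal listing floor 30 and 71, and leaving out mitochondrial DNA 28 and 63. No call that kept a value became a call in the opposite direction, but most of these settings could hardly reverse one. The filters left gene values as they were, and a changed pseudocount cannot change a sign. Of the 98 calls, only 55 had a value at 30 FPKM or more and 68 under the genes' own names. A pseudocount of 5 brought 11 named genes inside the threshold. Some small lists changed sign. The 3 glial genes had a median of -0.16. With at least 50% of exon bases covered, or at 30 FPKM or more, RLBP1 dropped out, and AQP4 and SLC1A3 alone stood at 0.10. The mitochondrial DNA protein genes, at -0.23, stood at 0.03 adjusted for exon length. The cause of the other moves was not tested. No paired analysis was possible because each state has 1 library. The listing floors of 5.84 FPKM in late stimulated and 12.5 FPKM in early stimulated limit what can be said of low genes.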
